A study of Mus musculus with 8 samples.

Results

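The unfolded protein response is the signalling system by which a cell adjusts to misfolded protein in the endoplasmic reticulum (ER), and 10 genes that encode its membrane sensors, its transcription factors and the proteases that release them were examined in the dentate gyrus. The set was Ern1, Xbp1, Eif2ak3, Atf6, Atf6b, Creb3, Creb3l1, Creb3l2, Mbtps1 and Mbtps2. Members were chosen by gene symbol, and all 28 probes that the array design assigns to these symbols were taken, out of 56605 probes in all. Of these 28 probes, 23 were well above background on both arrays of at least 1 group and were tested, among 40001 such probes of the whole array. Every member had at least 1 tested probe, so 10 of 10 genes were measured.

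The response has several arms. IRE1alpha, the product of Ern1, cuts the messenger RNA of Xbp1, and the spliced form encodes the active transcription factor XBP1. PERK, the product of Eif2ak3, phosphorylates eIF2alpha, which slows translation in general and favours translation of ATF4. ATF6 and its relative ATF6B leave the ER under stress and are cut in the Golgi by the site-1 protease (Mbtps1) and the site-2 protease (Mbtps2), and the freed fragments enter the nucleus. CREB3, CREB3L1 (also called OASIS) and CREB3L2 (also called BBF2H7) are membrane-bound factors released by the same cuts. Most of these steps act on the protein or on splicing, whereas the array reads the amount of transcript.

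Gene expression was measured on 8 single-colour arrays of the dentate gyrus, the hippocampal region in which granule neurons lie, from male C57BL/6 mice aged 8 to 9 weeks. Derlin-1 control mice carried Derl1 flanked by loxP sites (Derlin-1flox/flox), and Derlin-1 KO mice carried in addition a Cre recombinase under the nestin promoter, which acts in the neural lineage from development on. Derlin-2 control and Derlin-2 KO mice were the same for Derl2. Each of the 4 groups had 2 arrays, and the sources used here do not say whether an array held a single animal, so the p-values measure the spread between these samples. Cells that do not descend from nestin-expressing progenitors, such as microglia, keep the floxed gene. Each line lay on a slide of its own, so that slide and line cannot be told apart, and KO was compared with control within a line. A difference for Derlin-1 or for Derlin-2 is KO minus control on the log2 scale of the normalized signal.

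The arrays were alike in the share of probes well above background, at 67.6% to 70.8%, and had no saturated spot. Their 75th percentile signal before normalization ranged from 956 to 1437. Outlier spots numbered 84 to 178 on the Derlin-1 arrays and 278 to 429 on the Derlin-2 arrays. The brightest Derl2 probe was lower in Derlin-2 KO (-0.64 on the log2 scale, SE 0.097, adjusted p 0.259 in limma). A dimmer Derl2 probe was lower there as well (-1.04, SE 0.14, adjusted p 0.214 in limma). Neither Derl2 probe was past the threshold, although this gene was the one deleted. A gene that is not past the threshold is therefore not shown to be unchanged. The brightest Derl1 probe in Derlin-1 KO, in contrast, differed by -0.19 (SE 0.10) and a dimmer Derl1 probe by 0.46 (SE 0.12). The Derlin-1 groups therefore rest on their labels. All 8 granule neuron markers were above background on all arrays. No list of cell type markers held a gene past the threshold in either line. RNA of a whole tissue was measured, so that fewer cells of a type and less RNA per cell cannot be told apart in any result that follows.

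None of the 10 members was past the threshold of an adjusted p of 0.05 in limma for Derlin-1, for Derlin-2 or for the difference between the lines. In the array as a whole, 0% of the probes tested were past it for Derlin-1, 0.0452% (18 of 39812) for Derlin-2 and 0.00754% (3 of 39810) for the difference. At an unadjusted p under 0.05 in limma, Xbp1, Creb3l1 and Creb3l2 were higher in Derlin-1 KO, 0 members passed for Derlin-2, and Creb3l1 passed for the difference. At this threshold 4.72%, 5.55% and 5.90% of all probes passed in these contrasts. With the methods' t-test, 1 member passed at an unadjusted threshold in each line and 0 after Benjamini-Hochberg adjustment.

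Read by array with the brightest probe of each gene, 4 members kept a direction in both lines. Xbp1, Creb3l2 and Eif2ak3 were higher on all KO arrays than on the controls of their line, and Atf6b was lower on all KO arrays. Among all genes, 3.25% lay above and 2.57% lay below in both lines. Within the Derlin-1 line, 6 of 10 members had both KO arrays above both control arrays and 2 of 10 had both below, against 17.2% and 16.9% of all genes. Within the Derlin-2 line, the counts were 3 above and 2 below, against 19.2% and 13.6% of all genes. Ern1 and Mbtps1 overlapped between KO and control in both lines. The median log2 difference of the members was 0.09 for Derlin-1 and 0.01 for Derlin-2, beside -0.01 and 0.02 for all genes.

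**Figure D1:**
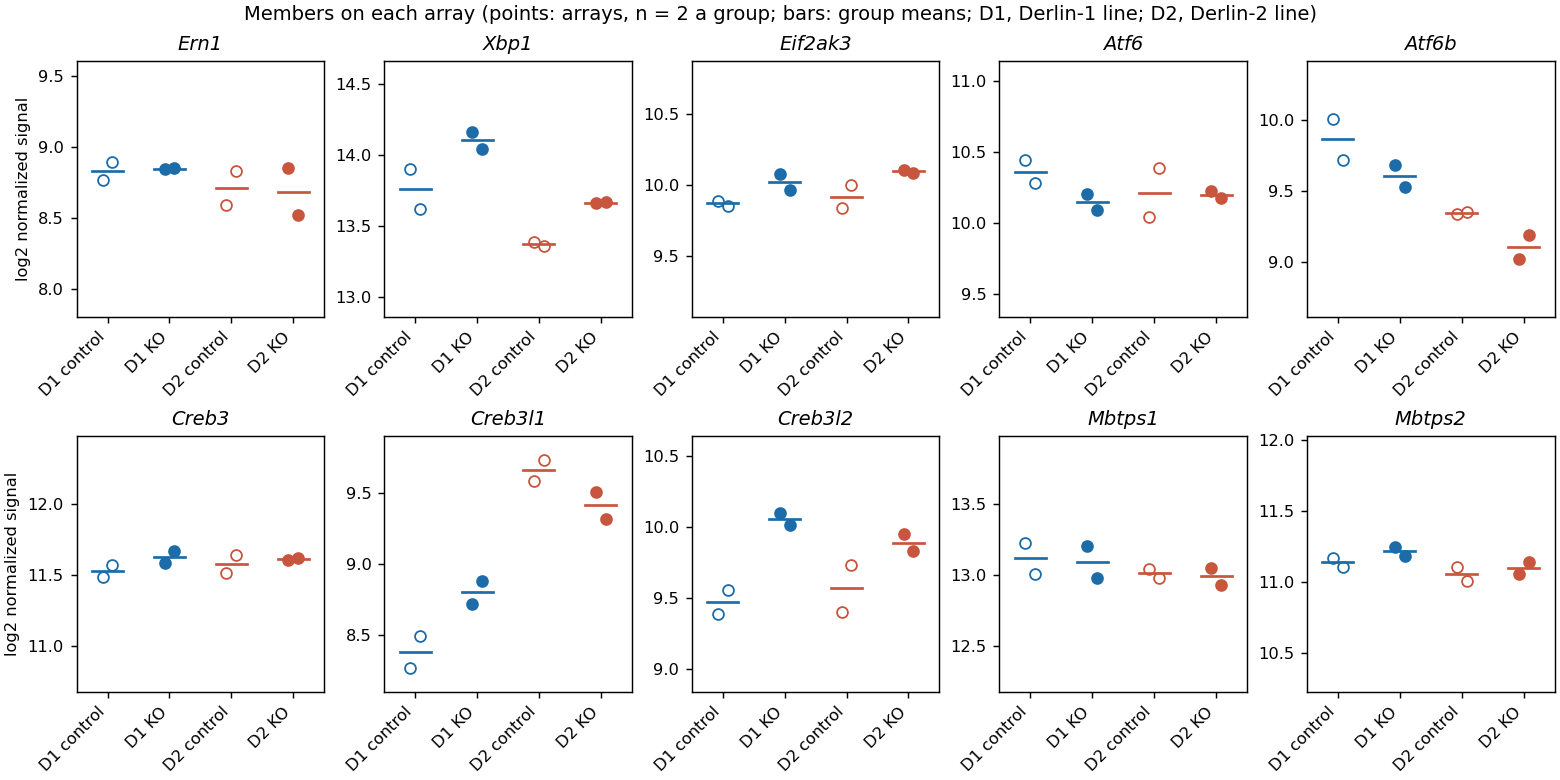
Log2 normalized signal of the brightest probe of each of the 10 members (vertical axis, each panel spanning the same number of log2 units) in the 4 groups. Open circles are control arrays, filled circles are KO arrays, blue is the Derlin-1 line, red is the Derlin-2 line and bars are group means of 2 arrays. Xbp1, Creb3l2 and Eif2ak3 lie above their controls on all KO arrays, Atf6b lies below, and Creb3l1 lies above for Derlin-1 and below for Derlin-2.

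The promoters of the 4 members that kept a direction in both lines are shown to let the arms be compared by sequence. RefSeq sequences on mouse build GRCm38.p6 were found for 8 of the 10 members, namely all but Atf6 and Creb3l1. Capitals mark the letters CCAAT (the box bound by the NF-Y complex), CCACG (the part of the ER stress response element, ERSE, that ATF6 and XBP1 contact) and TGACGT (the core of the cyclic AMP response element, which CREB3 family factors can bind), on either strand. The 250 bases before the transcription start are printed in the direction of the gene, from chr11:5520391-5520640 (plus strand) for Xbp1, chr6:37442149-37442398 (minus strand) for Creb3l2, chr6:70844265-70844514 (plus strand) for Eif2ak3 and chr17:34646896-34647145 (plus strand) for Atf6b.
Xbp1: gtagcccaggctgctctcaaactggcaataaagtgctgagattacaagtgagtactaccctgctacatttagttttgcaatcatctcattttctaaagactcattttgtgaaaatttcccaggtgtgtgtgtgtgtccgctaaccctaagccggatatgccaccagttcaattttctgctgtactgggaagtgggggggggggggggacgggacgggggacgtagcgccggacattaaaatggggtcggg
Creb3l2: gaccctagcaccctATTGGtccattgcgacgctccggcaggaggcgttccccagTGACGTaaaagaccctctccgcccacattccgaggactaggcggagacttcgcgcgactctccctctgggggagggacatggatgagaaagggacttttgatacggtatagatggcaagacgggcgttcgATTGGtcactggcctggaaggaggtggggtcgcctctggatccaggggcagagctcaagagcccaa
Eif2ak3: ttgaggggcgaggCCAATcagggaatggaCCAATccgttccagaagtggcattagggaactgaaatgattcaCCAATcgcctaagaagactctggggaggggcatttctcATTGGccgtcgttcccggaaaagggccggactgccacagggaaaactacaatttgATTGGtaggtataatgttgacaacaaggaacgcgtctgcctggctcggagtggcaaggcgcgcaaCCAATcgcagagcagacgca
Atf6b: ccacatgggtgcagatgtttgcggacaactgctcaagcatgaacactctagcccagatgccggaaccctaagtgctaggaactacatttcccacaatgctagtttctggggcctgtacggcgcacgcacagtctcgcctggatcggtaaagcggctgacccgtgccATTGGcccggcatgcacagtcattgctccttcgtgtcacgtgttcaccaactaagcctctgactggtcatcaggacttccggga

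Motifs were searched on both strands in a window of 250 bases before and 50 bases after the start, and overlaps between motifs were allowed. Eif2ak3 had 6 CCAAT boxes, with first bases from position -237 to position -20 relative to the start. Creb3l2 had CCAAT boxes at positions -236 and -66 and the letters TGACGT at position -196, and Atf6b had a CCAAT box at position -84. The Xbp1 window held none of these letters. Across all 32851 promoters, 37.4% held CCAAT, 32.8% held CCACG and 7.51% held TGACGT, and among the 8 members with a sequence these were held by 3, 3 and 1.

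The full ERSE, in which CCAAT and CCACG stand 9 bases apart, was in none of the 8 member promoters and in 0.119% of all promoters. It was in 9 of the 20 promoters available for a list of 24 known targets of ATF6 and XBP1, a list made from genes known for this regulation. Hspa5, the ER chaperone BiP, and Derl3, a relative of the deleted genes, are shown with the full element in capitals, from chr2:34771840-34772089 (plus strand) and chr10:75893148-75893397 (plus strand).
Hspa5: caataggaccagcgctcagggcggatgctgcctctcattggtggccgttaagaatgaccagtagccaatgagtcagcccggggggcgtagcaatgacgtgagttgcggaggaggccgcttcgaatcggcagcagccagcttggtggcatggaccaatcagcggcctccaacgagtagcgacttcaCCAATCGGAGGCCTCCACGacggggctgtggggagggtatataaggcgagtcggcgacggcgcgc
Derl3: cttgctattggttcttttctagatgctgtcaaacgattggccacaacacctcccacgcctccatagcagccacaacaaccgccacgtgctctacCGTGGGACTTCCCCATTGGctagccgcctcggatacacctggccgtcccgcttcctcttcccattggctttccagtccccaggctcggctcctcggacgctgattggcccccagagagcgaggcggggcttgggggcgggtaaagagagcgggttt

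In Hspa5 the element began at position -65, and in Derl3 it lay on the opposite strand with its leftmost base at position -156. A match is a description of letters in this window and was not tested as a site.

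The IRE1 arm was examined first. Ern1, the sensor and RNase, had log2 signals of 8.77 and 8.89 in Derlin-1 control, 8.85 and 8.85 in Derlin-1 KO, 8.59 and 8.83 in Derlin-2 control and 8.85 and 8.52 in Derlin-2 KO. The groups overlapped in both lines. The log2 difference between KO and control was 0.02 (95% interval -0.35 to 0.38) for Derlin-1 and -0.03 (95% interval -0.39 to 0.34) for Derlin-2. Of the 5 Ern1 probes, 3 were not tested because of low signal. The other tested probe (A_51_P516705) read -0.13 (SE 0.11) and -0.02 (SE 0.11).

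Xbp1, the transcription factor whose messenger RNA IRE1alpha splices, was higher by its brightest probe on every KO array than on the controls of its line. For Derlin-1, its brightest probe (A_55_P1994032) read 13.90 and 13.62 on the control arrays and 14.16 and 14.04 on the KO arrays. For Derlin-2, it read 13.38 and 13.36 on the control arrays and 13.66 and 13.67 on the KO arrays. The log2 difference was 0.34 (SE 0.12, 95% interval 0.04 to 0.65), or 1.27-fold, for Derlin-1, with an unadjusted p of 0.0319 and an adjusted p of 0.9997 in limma. For Derlin-2 it was 0.29 (SE 0.12, 95% interval -0.01 to 0.60), or 1.22-fold, with an unadjusted p of 0.0563 and an adjusted p of 0.918 in limma. The lines differed by 0.05 (95% interval -0.38 to 0.48).

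The Xbp1 probes differed for Derlin-2. The other probes read 0.35 (A_52_P185079, SE 0.17) and 0.36 (A_55_P2739653, SE 0.26) for Derlin-1, close to the brightest probe. For A_55_P2739653 the KO and control arrays overlapped, and A_52_P185079 sat in the final eighth of the array rows. For Derlin-2 the other probes read 0.07 and 0.01, and the arrays overlapped for both. All 3 probes are annotated to transcript variant 1, and their sequences were not used here, so that the spliced and unspliced forms of Xbp1 cannot be told apart. Without Derlin-1 control replicate 2, the difference of the brightest probe for Derlin-1 was 0.20 in place of 0.34.

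**Figure D2:**
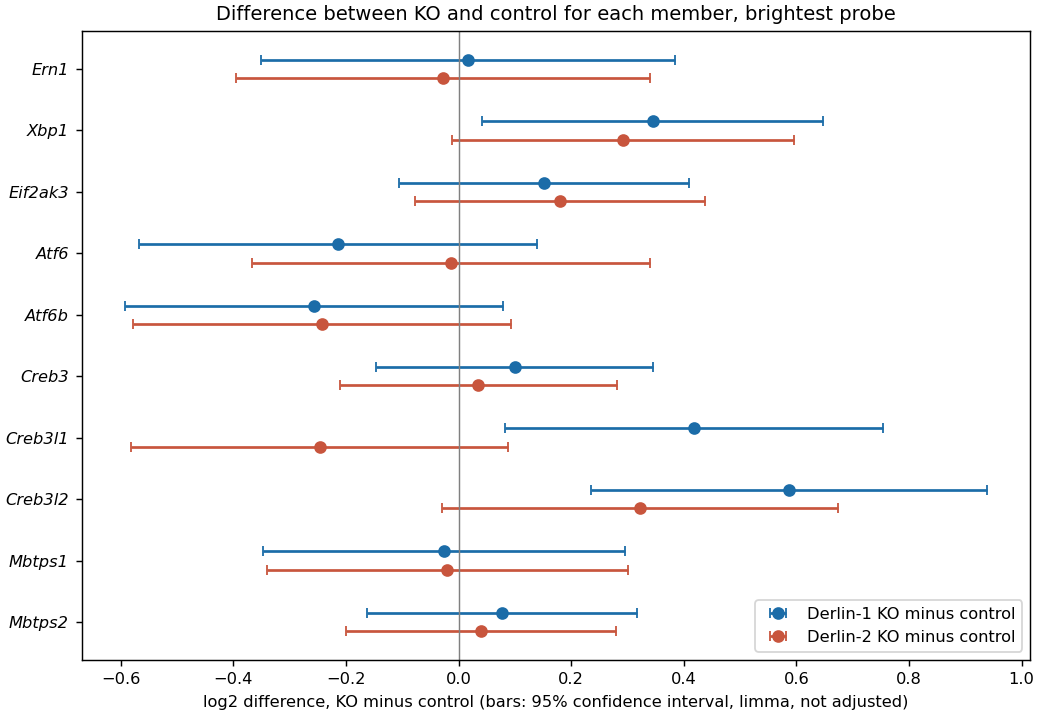
Log2 difference between KO and control (horizontal axis) for the brightest probe of each of the 10 members, for Derlin-1 (blue) and the Derlin-2 line (red). Bars are unadjusted 95% confidence intervals from limma, and only those of Xbp1, Creb3l1 and Creb3l2 for Derlin-1 exclude 0.

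Genes that work with IRE1alpha differed little between KO and control. Of 8 partners, which include adaptors and regulators such as Traf2, Ptpn1 and the RNA ligase Rtcb, 1 was higher in Derlin-1 KO (median -0.06) and 7 were higher in Derlin-2 KO (median 0.05), and 0 were past the threshold. Ern2, the epithelial relative of Ern1, read -0.32 (SE 0.20) for Derlin-1 on a dim probe. Its log2 signals were 4.90 and 5.12 in Derlin-1 control and 4.77 and 4.62 in Derlin-1 KO. Tmbim6, an ER membrane protein that restrains IRE1alpha, read -0.11 (SE 0.11) for Derlin-1. Mapk8, the kinase JNK1 downstream of IRE1alpha, read 0.21 (SE 0.13) for Derlin-2. Among all genes, 46.1% were higher in Derlin-1 KO and 54.3% in Derlin-2 KO.

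Messenger RNAs that IRE1alpha degrades were also counted. Of 6 such substrates, 3 were higher in Derlin-1 KO and 2 in Derlin-2 KO, with medians of 0.01 and -0.07. Bloc1s1, the best known of them, read 0.13 (SE 0.11) for Derlin-1 with both KO arrays above both controls. Pdgfrb, a receptor of pericytes, read 0.15 (SE 0.13) for Derlin-2, and Hgsnat, a lysosomal enzyme, read -0.09 (SE 0.11).

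The PERK arm was examined next. Eif2ak3, the sensor, had log2 signals of 9.89 and 9.86 in Derlin-1 control and 10.08 and 9.97 in Derlin-1 KO. It had 9.84 and 10.003 in Derlin-2 control and 10.11 and 10.09 in Derlin-2 KO. All KO arrays lay above the controls of their line, by a small margin. The log2 difference was 0.15 (SE 0.11, 95% interval -0.11 to 0.41) for Derlin-1 and 0.18 (SE 0.11, 95% interval -0.08 to 0.44) for Derlin-2, with adjusted p of 0.9997 and 0.970 in limma. Without Derlin-1 KO replicate 1 the Derlin-1 value was 0.092, and normexp background correction gave 0.082. Without Derlin-2 control replicate 1 the Derlin-2 value was 0.098. A dim probe of transcript variant 2 (A_55_P2727489) read 0.05 (SE 0.35) and 0.33 (SE 0.35).

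Of 10 partners of PERK and eIF2alpha, 5 were higher in Derlin-1 KO and 6 in Derlin-2 KO, with medians of -0.01 and 0.03 and 0 past the threshold. Eif2ak2, the antiviral eIF2alpha kinase PKR, read 7.76 and 8.49 in Derlin-2 control and 7.19 and 7.39 in Derlin-2 KO, a difference of -0.83 (SE 0.23, adjusted p 0.677 in limma). Its probe sat in the final eighth of the array rows. Dnajc3, the ER co-chaperone p58IPK that inhibits PERK, read 0.14 (SE 0.11) for Derlin-1 and 0.33 (SE 0.11, adjusted p 0.815 in limma) for Derlin-2. Eif2ak4, the amino acid sensor GCN2, read 0.15 (SE 0.10) for Derlin-1. Ppp1r15a, the stress-induced eIF2alpha phosphatase subunit GADD34, read 0.15 (SE 0.14) there. Eif2ak1, the haem-regulated kinase HRI, read 0.19 (SE 0.14) for Derlin-2.

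Targets of PERK, ATF4 and CHOP were higher in 18 of 23 genes in Derlin-1 KO and in 12 of 23 in Derlin-2 KO. Their medians were 0.12 and 0.04, and 0 genes were past the threshold. This list, too, was chosen with earlier results of these data known. Both KO arrays lay above both controls for 13 genes for Derlin-1 and 6 for Derlin-2, beside 17.2% and 19.2% of all genes, and below both controls for 1 and 0. The genes with the smallest p were not the same in the lines. Slc7a3, a transporter of cationic amino acids, read 9.18 and 9.43 in Derlin-1 control and 10.13 and 10.57 in Derlin-1 KO, a difference of 1.04 (SE 0.19, adjusted p 0.9997 in limma), with its probe in the final eighth of the array rows. Atf3, a stress-induced transcription factor, read 0.57 (SE 0.16) and Chac1, a glutathione-degrading enzyme, read 0.28 (SE 0.10) in the same line.

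For Derlin-2, Nupr1, a small stress-induced nuclear protein, read 8.70 and 9.28 on the control arrays and 10.26 and 9.97 on the KO arrays, a difference of 1.12 (SE 0.21, adjusted p 0.413 in limma). Slc7a11, the cystine transporter, read 0.56 (SE 0.20), and Atf5, a transcription factor of this arm, read 0.40 (SE 0.19). The median of this list for Derlin-2 crossed 0 when single arrays were left out, at -0.023 when Derlin-2 control replicate 1 was dropped and -0.012 when KO replicate 1 was dropped, against 0.087 when control replicate 2 was dropped.

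The ATF6 arm was then examined. Atf6 had log2 signals of 10.44 and 10.29 in Derlin-1 control and 10.21 and 10.09 in Derlin-1 KO, and both KO arrays lay below both controls. For Derlin-2 it had 10.04 and 10.39 in controls and 10.23 and 10.18 in KO, which overlapped. The log2 difference was -0.21 (SE 0.14, 95% interval -0.57 to 0.14) for Derlin-1 and -0.01 (95% interval -0.37 to 0.34) for Derlin-2. A dimmer Atf6 probe (A_55_P2717673), annotated to an Ensembl transcript, read the opposite way, at 0.24 (SE 0.18) and 0.23 (SE 0.18), so that the direction of Atf6 depends on the probe.

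Atf6b, the relative of Atf6 that is known as a weaker activator, was the member with all KO arrays below the controls of their line in both lines. It read 10.01 and 9.72 in Derlin-1 control and 9.69 and 9.53 in Derlin-1 KO. It read 9.34 and 9.36 in Derlin-2 control and 9.02 and 9.19 in Derlin-2 KO. The lower Derlin-1 control was close to the higher Derlin-1 KO array. The log2 difference was -0.26 (SE 0.14, 95% interval -0.59 to 0.08) and -0.24 (SE 0.14, 95% interval -0.58 to 0.09), with adjusted p of 0.9997 and 0.965 in limma. Leaving out Derlin-1 control replicate 1 brought the Derlin-1 value to -0.11, and leaving out Derlin-2 KO replicate 1 brought the Derlin-2 value to -0.16. A single probe measured this gene.

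The proteases that release these factors differed little between KO and control. Mbtps1 read 13.23 and 13.01 in Derlin-1 control and 13.20 and 12.98 in Derlin-1 KO, and 13.05 and 12.98 in Derlin-2 control and 13.05 and 12.93 in Derlin-2 KO. The arrays overlapped in both lines, with differences of -0.03 (95% interval -0.35 to 0.30) and -0.02 (95% interval -0.34 to 0.30). The other 3 Mbtps1 probes ranged from -0.25 (SE 0.33) to 0.05 (SE 0.19) for Derlin-1 and from -0.10 (SE 0.11) to 0.31 (SE 0.19) for Derlin-2.

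Mbtps2 read 11.17 and 11.11 in Derlin-1 control and 11.25 and 11.19 in Derlin-1 KO, and 11.11 and 11.01 in Derlin-2 control and 11.05 and 11.14 in Derlin-2 KO. Its differences were 0.08 (95% interval -0.16 to 0.32) and 0.04 (95% interval -0.20 to 0.28). The Mbtps2 probes A_55_P2185910 and A_55_P2925549 read 0.02 (SE 0.16) and -0.04 (SE 0.15) for Derlin-1 and -0.03 and -0.02 for Derlin-2. A further Mbtps2 probe (A_55_P2014347) was well above background on the Derlin-1 KO arrays and on no other array, at a level near the limit of detection. No fold is drawn from it, and 1 more probe was never above background.

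Of 10 other substrates and cofactors of these proteases and of ATF6, such as the sterol regulators Srebf1 and Srebf2, the chaperone Scap and the subunits of NF-Y, 4 were higher in Derlin-1 KO and 7 in Derlin-2 KO, with medians of -0.03 and 0.04 and 0 past the threshold. Creb3l3, a further factor of the CREB3 family that is best known from liver, had both KO arrays above both controls in both lines. It read 7.504 and 7.81 against 7.84 and 8.00 for Derlin-1 and 7.39 and 7.34 against 7.70 and 7.95 for Derlin-2, with differences of 0.27 (SE 0.15) and 0.47 (SE 0.15, adjusted p 0.779 in limma). Gnptab, whose protein product is cut by site-1 protease, read 0.15 (SE 0.10) for Derlin-2. Nfya, the NF-Y subunit that contacts the CCAAT box, read -0.29 (SE 0.25) there.

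By the brightest probes, Creb3l2 and Creb3l1 gave the largest differences of the set for Derlin-1. Creb3l2, known for its part in the secretory pathway of cartilage, had log2 signals of 9.39 and 9.56 in Derlin-1 control and 10.10 and 10.02 in Derlin-1 KO. It had 9.40 and 9.74 in Derlin-2 control and 9.95 and 9.83 in Derlin-2 KO. The KO arrays lay clear of the controls for Derlin-1 and narrowly above them for Derlin-2. The log2 difference was 0.59 (SE 0.14, 95% interval 0.23 to 0.94), or 1.502-fold, for Derlin-1, with an unadjusted p of 0.00645 and an adjusted p of 0.9997 in limma.

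For Derlin-2, the Creb3l2 difference was 0.32 (SE 0.14, 95% interval -0.03 to 0.67), or 1.25-fold, and limma gave an adjusted p of 0.928. The lines differed by 0.26 (95% interval -0.23 to 0.76). A dim probe (A_52_P343856) read 0.25 (SE 0.40) and 0.37 (SE 0.40), higher in both lines with wide errors, and 1 more probe was never above background. Without Derlin-2 control replicate 1, the difference of the bright probe for Derlin-2 was 0.15, and without Derlin-2 control replicate 2 it was 0.49.

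Creb3l1, known for its role in bone matrix secretion and in astrocytes, went opposite ways in the lines. It read 8.26 and 8.49 in Derlin-1 control and 8.72 and 8.88 in Derlin-1 KO, with both KO arrays above. It read 9.58 and 9.73 in Derlin-2 control and 9.51 and 9.31 in Derlin-2 KO, with both KO arrays below. The log2 difference was 0.42 (SE 0.14, 95% interval 0.08 to 0.75), or 1.34-fold, for Derlin-1 and -0.25 (SE 0.14, 95% interval -0.58 to 0.09) for Derlin-2. The difference between the lines was 0.67 (SE 0.19, 95% interval 0.19 to 1.14), with an unadjusted p of 0.0139 and an adjusted p of 0.749 in limma, and was not past the threshold. Without Derlin-2 KO replicate 2 the Derlin-2 value was -0.15, and it stayed below 0 with any array left out. A single probe measured Creb3l1.

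Interneuron markers mostly differed in the same directions as Creb3l1. Of 7 markers (Gad1, Gad2, Sst, Pvalb, Vip, Npy and Slc32a1), all above background on all arrays, 5 were higher in Derlin-1 KO and 1 in Derlin-2 KO, with median differences of 0.17 and -0.14. Their summed level on the log2 scale was 16.33 to 16.40 in Derlin-1 control, 16.51 to 16.69 in Derlin-1 KO, 16.84 to 16.91 in Derlin-2 control and 16.63 to 16.66 in Derlin-2 KO. Levels were not compared between the lines, since slide and line cannot be told apart. Astrocyte markers were higher in 4 of 7 genes in each KO group, with median differences of 0.002 and 0.07. The part of the interneuron or astrocyte share in the Creb3l1 result was not tested.

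Markers of the choroid plexus, a secretory epithelium, were mostly higher in both lines, as were Xbp1 and Creb3l2. Of 8 markers, 6 were higher in each KO group, with median differences of 0.28 and 0.24. Their summed log2 level was 10.59 to 10.76 in Derlin-1 control and 10.74 to 10.86 in Derlin-1 KO, and 11.01 to 12.15 in Derlin-2 control and 11.17 to 12.30 in Derlin-2 KO, so that the groups overlapped in both lines. All but 1 of these markers were above background on all arrays. Markers of meningeal and perivascular fibroblasts were higher in 6 of 8 genes in Derlin-1 KO and in 5 of 8 in Derlin-2 KO. Their median differences were 0.15 and 0.21, and their summed levels overlapped in both lines. The part of choroid plexus cells or fibroblasts in the results of the members was not tested.

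Microglia markers were lower in 7 of 7 genes in Derlin-1 KO, with a median of -0.13 and summed levels of 14.81 to 14.85 in controls and 14.62 to 14.69 in KO, and higher in 5 of 7 in Derlin-2 KO. Granule neuron markers had a median of -0.30 in Derlin-1 KO, with summed levels that overlapped. CA pyramidal neuron markers were higher in 4 of 6 genes in Derlin-1 KO, with a median of 0.24. In Derlin-2 KO 3 of 6 of them were higher, with a median of -0.02, and their summed levels overlapped in both lines. Newborn neuron markers were higher in 7 of 8 genes in Derlin-2 KO, with a median of 0.27, against a median of -0.11 in Derlin-1 KO. Both Derlin-2 KO arrays lay above both controls for 6 of these markers, beside 19.2% of all genes. Summed levels of the newborn neuron markers overlapped in both lines. Blood markers were lower in 4 of 4 genes in both KO groups, with medians of -0.55 and -0.14. Their summed levels overlapped for Derlin-1 and lay at 16.31 to 16.50 in controls and 16.19 to 16.20 in KO for Derlin-2. Over all genes, 46.1% were higher in Derlin-1 KO and 54.3% in Derlin-2 KO. The part of these marker shifts in the results of the members was not tested.

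Creb3, the founding factor of the family, had log2 signals of 11.49 and 11.57 in Derlin-1 control and 11.58 and 11.67 in Derlin-1 KO, and of 11.52 and 11.64 in Derlin-2 control and 11.61 and 11.62 in Derlin-2 KO. The Derlin-1 KO arrays lay above their controls by a margin of about the last decimal given, and the Derlin-2 arrays overlapped. The differences were 0.10 (95% interval -0.15 to 0.35) and 0.03 (95% interval -0.21 to 0.28). Another Creb3 probe (A_52_P231714) read -0.05 (SE 0.19) and 0.01 (SE 0.19). Both Creb3 probes sat in the final eighth of the array rows.

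**Figure D3:**
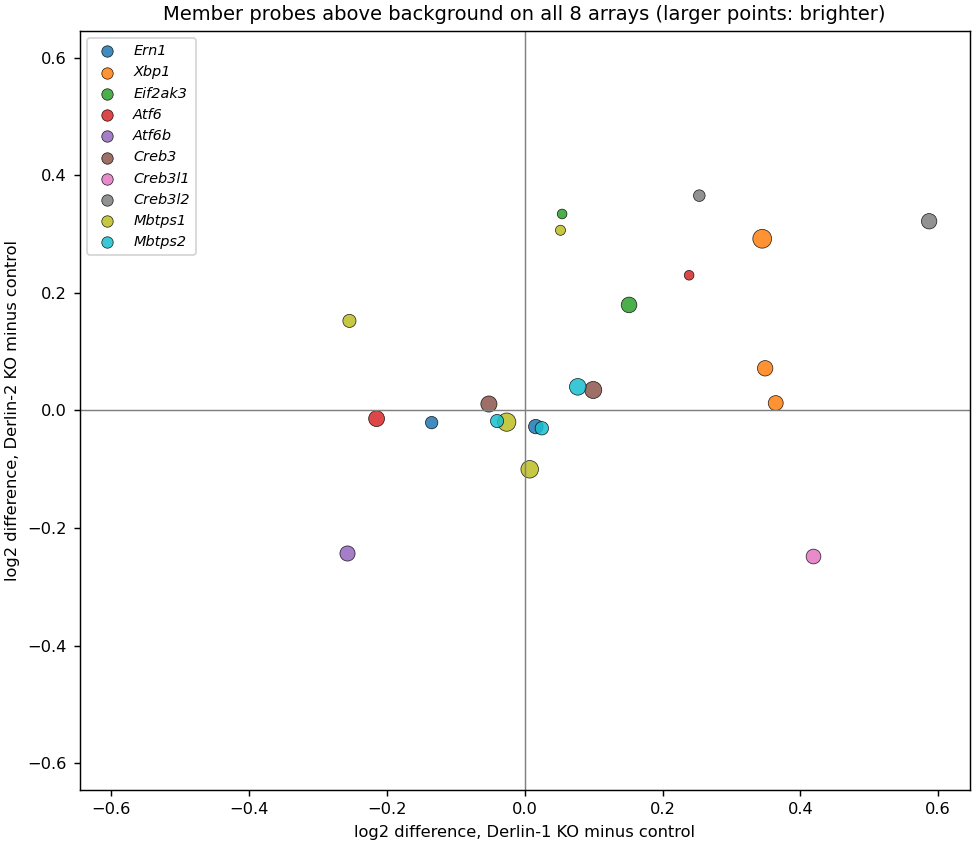
Log2 difference between KO and control for Derlin-1 (horizontal axis) and for Derlin-2 (vertical axis) for the 22 member probes above background on all 8 arrays. Colours are genes and larger points are brighter probes. The 3 Xbp1 probes share a value of about 0.35 for Derlin-1 and spread from 0.01 to 0.29 for Derlin-2, both Creb3l2 probes lie in the upper right and Creb3l1 lies in the lower right.

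Downstream of the members, the targets of ATF6 and XBP1 were examined as a list of 24 genes that encode ER chaperones, folding enzymes and factors of ER-associated degradation. The list was chosen with earlier results of these data known, so its counts are a description and not independent support. In Derlin-1 KO 24 of 24 were higher, with a median log2 difference of 0.28, and both KO arrays lay above both controls for 21 of them and below for 0. In Derlin-2 KO 21 of 24 were higher, with a median of 0.12, and both KO arrays lay above both controls for 12 and below for 0. Over all genes, both KO arrays lay above both controls for 17.2% for Derlin-1 and 19.2% for Derlin-2. Without Derlin-2 control replicate 1 the Derlin-2 median was 0.056, and without Derlin-2 control replicate 2 it was 0.20. None was past the threshold in limma. At an unadjusted p under 0.05, 10 were higher for Derlin-1 and 6 for Derlin-2, and 0 were lower in either, beside 521 of 19909 and 520 of 19814 genes higher over the whole array.

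The same genes of this list had the smallest p in both lines. Derl3, which like Derlin-1 and Derlin-2 serves degradation of misfolded ER proteins, read 6.79 and 7.10 in Derlin-1 control and 8.93 and 9.22 in Derlin-1 KO, a difference of 2.13 (SE 0.29, adjusted p 0.898 in limma). For Derlin-2 it read 6.80 and 7.64 on the control arrays and 8.47 and 8.41 on the KO arrays, a difference of 1.22 (SE 0.29, adjusted p 0.561 in limma). Hspa5 read 0.66 (SE 0.12) and 0.48 (SE 0.12), and Pdia6, a protein disulphide isomerase, read 0.56 (SE 0.11) and 0.45 (SE 0.11). The full ERSE shown above for Hspa5 and Derl3 was also in the Pdia6 promoter, from position -98. It was likewise in the promoters of Hsp90b1, Calr, Canx, Creld2, Syvn1 and Dnajc3. In this order, these genes read 0.49, 0.61, 0.37, 0.31, 0.12 and 0.14 for Derlin-1. For Derlin-2 they read 0.04, 0.08, 0.13, 0.01, 0.05 and 0.33. A relation between the element and the size of the difference was not tested.

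**Figure D4:**
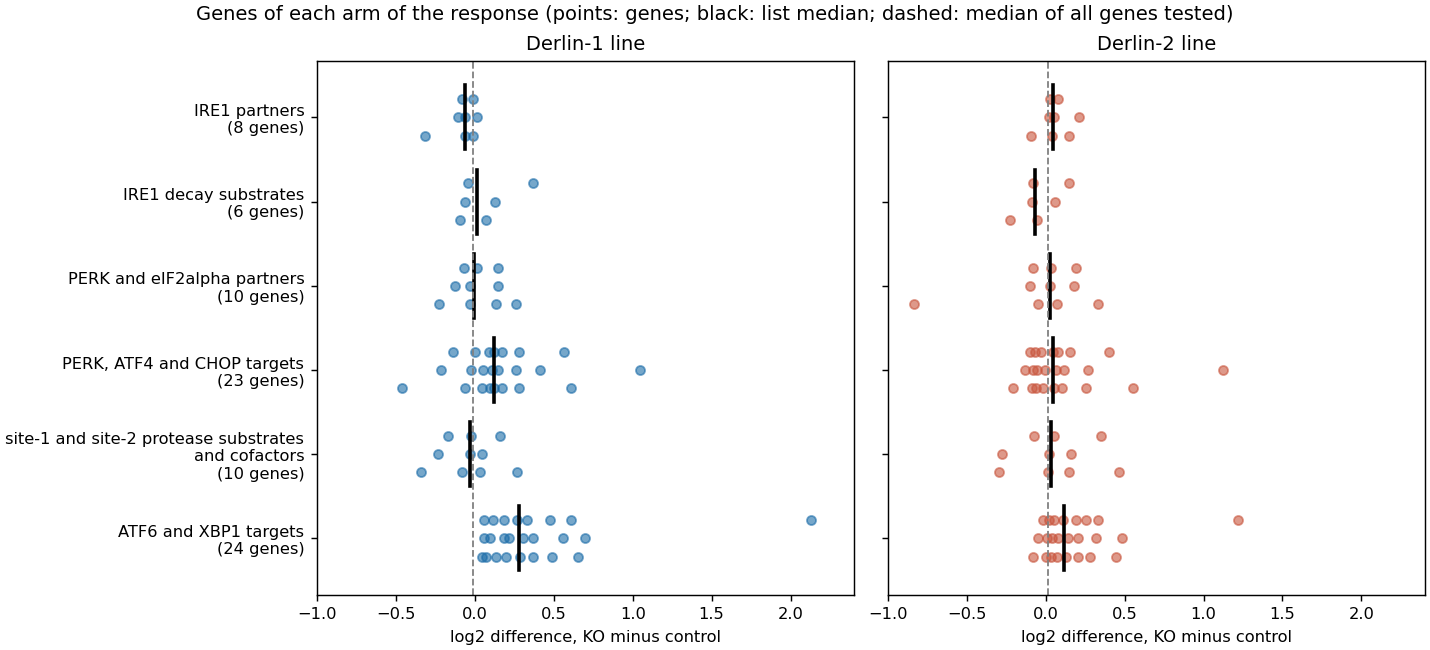
Log2 difference between KO and control (horizontal axis) for the genes of 6 lists around the members, for Derlin-1 (left) and Derlin-2 (right). Points are genes, black bars are list medians and the dashed line is the median of all genes tested. The ATF6 and XBP1 targets lie above 0 in 24 of 24 genes for Derlin-1 and in 21 of 24 for Derlin-2. The lists were chosen with earlier results of these data known.

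The genes most like Xbp1 were named by Pearson's r with its brightest probe over the 8 arrays after subtraction of the mean of each line, among 18055 genes above background on all arrays. These values share the arrays and the contrast between KO and control and are given as a description. The 5 genes were Eif5 (r 0.990), a translation initiation factor, Gm8624 (r 0.972), Ick (r 0.967), a kinase of cilia, Sap30l (r 0.966) and 4931406C07Rik (r 0.965). Eif5 differed between KO and control by 0.07 for Derlin-1 and 0.06 for Derlin-2, far less than Xbp1. Among the ATF6 and XBP1 targets and the members, Syvn1, the ER ubiquitin ligase HRD1, came first (r 0.947), at rank 14 of all genes, ahead of Manf (r 0.919) and Hspa5 (r 0.916). Eif2ak3 was the member most like Xbp1, with r 0.826.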

How the data were processed

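RNA of the dentate gyrus was profiled on 8 Agilent SurePrint mouse arrays, and groups were taken from the sample titles. Spot intensity was deposited as scanner output of Agilent Feature Extraction (version 10.7.1.1), with the background already subtracted and spatial trends removed. The deposited tables hold log2 values that the authors quantile-normalized and shifted to the median of all samples in GeneSpring, and these served only as an alternative. The same tables hold the authors' fold changes, which were not used here. Gene symbols came from these tables, joined by probe name.

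Signals below 1 were set to 1, the log2 was taken, and quantile normalization, which the study's methods name, was applied to the 8 arrays without control spots. Outlier spots were then left out and spots of a probe averaged. Probes well above background on both arrays of at least 1 group were kept. A gene is given by its brightest probe, since levels of different probes are not comparable. Group means were fitted with limma (version 3.58.1, R version 4.3.3) on 4 residual and 2.07 prior degrees of freedom. Tests were two-sided, with Benjamini-Hochberg adjustment over all probes and a threshold of 0.05. The number of arrays limits the precision, and an exact permutation test of 2 arrays against 2 cannot go below p = 0.333. The fit was tested on simulated data.

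The members and lists were chosen with earlier results of these data known. Genes named from a list were the up to 3 with the smallest p in each line among those whose KO arrays both lay on the same side of the controls, above background on all arrays. No set test was run. Alternatives changed the background correction, scaling, filter, floor, arrays used, replicate block, rows, test and probe. Normexp was run on the median spot signal, since the scanner files hold no mean signal.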

Additional observations from a re-analysis of the deposited data

How the results depend on the processing

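No member was past the threshold under any alternative or with any array left out, and 261 values of the members' differences kept their direction under alternatives that left no array out. Xbp1, Creb3l1, Creb3l2, Eif2ak3 and Atf6b kept theirs under every alternative run. A further 19 were reversed, all close to 0 or in another probe, and the cause was not tested. For Ern1 for Derlin-1 the other probe gave -0.13 and the mean over probes -0.059. For Atf6 for Derlin-1 these were 0.24 and 0.012, and for Derlin-2 0.23 and 0.11, with 0.0073 under normexp. For Mbtps1 for Derlin-1 normexp gave 0.035 and other probes 0.0073 and 0.052. For Mbtps1 for Derlin-2, 75th percentile scaling gave 0.016, the deposited log2 values 0.011, other probes 0.15 and 0.31 and the mean over probes 0.085. For Mbtps2, another probe gave -0.040 for Derlin-1 and others -0.030 and -0.018 for Derlin-2. For Creb3 for Derlin-1 the other probe gave -0.052, and no value was possible without the final eighth of the rows, where both its probes lie. With single arrays left out, the values crossed 0 for Ern1 (-0.045 to 0.077 for Derlin-1, -0.19 to 0.14 for Derlin-2), for Mbtps1 (-0.14 to 0.085 and -0.082 to 0.042), and for Derlin-2 for Atf6 (-0.19 to 0.16), Mbtps2 (-0.0081 to 0.089) and Creb3 (-0.028 to 0.098).

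The number of probes past the threshold varied far more. For Derlin-2 it was 18, with 2 under normexp, 29 with no filter, 2 with only probes above background on all arrays, 4 without the final eighth of the rows, and 0 with only the arrays of the line, with the deposited log2 values or with the methods' t-test. That t-test gave 2355 probes for Derlin-1 and 1887 for Derlin-2 at its unadjusted threshold. For the difference between the lines the count was 3, with 5 under 75th percentile scaling, 6 with a floor of 16, and 0 under normexp, with no filter, with the stricter filter or without the final eighth of the rows. Without single arrays, the count ranged from 0 to 47 for Derlin-1 (47, 31, 41 and 35 without Derlin-1 control replicate 1, control replicate 2, KO replicate 1 and KO replicate 2, against 0 otherwise). It ranged from 4 to 242 for Derlin-2 (239, 164, 242 and 130 without the Derlin-2 arrays in the same order, and 4, 4, 6 and 6 without the Derlin-1 arrays) and from 31 to 166 for the difference. A lone remaining array was assumed to vary like the other groups.

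The replicate numbers do not pair samples by any label, and deviations of same-numbered arrays correlated with r 0.352 for Derlin-1 and -0.155 for Derlin-2. With the replicate block, 0 probes were past the threshold for Derlin-1, 0 for Derlin-2 and 0 for the difference. With the pairs of the Derlin-2 line crossed, an alternative chosen after seeing the data, these counts were also 0, 0 and 0. Masking outlier spots before normalization, likewise chosen after seeing the data, gave 0, 18 and 3.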
